A study of Mus musculus with 20 samples.

Results

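Prdm1, Bcl6 and Maf encode transcription factors that set the balance between macrophage and osteoclast gene programs. They were followed across all 10 groups of an RNA sequencing series in RAW264.7 cells, a mouse macrophage-like cell line that forms osteoclast-like cells when given RANKL, the cytokine that drives osteoclast formation. The 3 genes were taken by symbol from 50686 genes in the count table, and the set was chosen with earlier results of these data known. Cells received RANKL at 50 ng/ml together with the BET bromodomain inhibitor I-BET at 500 nM, RANKL alone, or I-BET alone, each for 4, 14 or 24 h. Untreated cells were collected at hour 0 only, so time in culture and treatment cannot be told apart in any comparison with them. Each of the 10 groups had 2 libraries of poly(A) RNA. All groups are 1 cell line, and the labels call the cells a monocyte-derived line with bone marrow as the source. The labels do not say that the libraries came from separate cultures, so each p-value measures only how far these libraries spread, and that spread may be technical.

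Blimp1, the product of Prdm1, is a zinc finger repressor with a PR domain. In mouse osteoclast precursors it is known to act on Irf8 and Bcl6, which hold the osteoclast program in check. Bcl6 is a BTB zinc finger repressor that works through corepressors such as Bcor and Ncor1, and in mouse osteoclast precursors it is known to act on Nfatc1, Dcstamp and Ctsk. Maf (c-Maf) is a large Maf leucine zipper factor of macrophages. In B lymphocytes Prdm1 and Bcl6 are known to repress each other. BET proteins bind acetylated histones and promote transcription, and I-BET displaces them.

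In mm10 coordinates Prdm1 (ENSMUSG00000038151) lies on the minus strand at chr10:44437177-44528501, Bcl6 (ENSMUSG00000022508) on the minus strand at chr16:23965052-23988852, and Maf (ENSMUSG00000055435) on the minus strand at chr8:115682942-115707794. The exonic lengths behind the authors' RPKM were 5579 bases for Prdm1, 6700 bases for Bcl6 and 8241 bases for Maf. A 114-base protein-coding gene model, Gm37419, lies on the opposite strand within Bcl6, and the antisense gene Gm15655 spans 2156 bases within Maf. No source used here states whether the counting used strand, so reads of these partners cannot be told apart from those of Bcl6 and Maf.

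Promoter sequences of 2 of the 3 members were found in the RefSeq table (GRCm38.p6), 3 promoters in all. They are shown because each of the 2 genes is a listed target of the other's product, and because NF-kB, AP-1 and STAT factors are known to act on one or both. Each is the 250 bases before an annotated start, 5′ to 3′ on the gene's strand, with matches to a searched motif in capitals. The Prdm1 start lies 69753 bases inside the gene span given above, and the internal Bcl6 start 7569 bases inside its span.
Prdm1 internal start, chr10:44458749-44458998: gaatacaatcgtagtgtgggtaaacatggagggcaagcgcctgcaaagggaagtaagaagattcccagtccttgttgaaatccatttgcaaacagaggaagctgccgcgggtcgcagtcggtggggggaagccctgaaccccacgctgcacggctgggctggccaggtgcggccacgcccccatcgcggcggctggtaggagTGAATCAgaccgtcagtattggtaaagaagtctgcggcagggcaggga
Bcl6 upstream start, chr16:23988853-23989102: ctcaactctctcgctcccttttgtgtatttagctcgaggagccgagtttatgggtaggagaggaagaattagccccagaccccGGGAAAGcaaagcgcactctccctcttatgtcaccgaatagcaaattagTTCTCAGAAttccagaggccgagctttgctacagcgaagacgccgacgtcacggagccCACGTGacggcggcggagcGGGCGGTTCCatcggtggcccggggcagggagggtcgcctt
Bcl6 internal start, chr16:23981284-23981533: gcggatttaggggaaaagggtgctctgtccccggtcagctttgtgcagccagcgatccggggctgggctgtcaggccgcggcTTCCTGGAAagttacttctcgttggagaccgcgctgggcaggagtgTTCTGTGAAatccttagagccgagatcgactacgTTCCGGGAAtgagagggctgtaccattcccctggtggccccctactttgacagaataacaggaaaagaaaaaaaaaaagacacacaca

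The Prdm1 window, at this internal start, held 1 match to the AP-1 motif TGANTCA, starting 48 bases before the annotated start. The upstream Bcl6 window held 1 match each to the Blimp1 motif GNGAAAG (167 bases before the start), the Bcl6 and STAT motif TTCNNNGAA (118 bases), the Myc E-box CACGTG (60 bases) and the NF-kB motif (41 bases). The internal Bcl6 window held 3 matches to TTCNNNGAA, at 168, 122 and 88 bases before the start, and these letters cannot tell a Bcl6 site from a STAT site. The Maf motif TGCTGA had no match in these 3 windows. Both strands were searched, and no match overlapped another. Among 32851 promoter windows of the same length, 19.4% held GNGAAAG, 7.02% TTCNNNGAA, 16.1% TGCTGA, 6.75% TGANTCA, 6.02% CACGTG and 4.65% the NF-kB motif. A match is a description of the sequence, and binding was not measured here.

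The libraries held 19051780 to 62313792 reads assigned to genes. The untreated library 2 stood apart: its 5 most abundant genes took 11.4% of its counts, against 3.54% to 6.09% in the other 19 libraries, and ribosomal and related noncoding RNA symbols took 3.59%, against 0.0625% to 0.292%. The libraries numbered 1 and those numbered 2 also deviated together from their group means. A fit with the library number as a block (the blocked fit) is therefore given beside each result whose call it changes. All 10 macrophage markers were detected in every group, and their summed level was 3072 to 3534 CPM (counts scaled to library size) at RANKL 24 h, against 8787 to 8996 CPM in untreated cells. Lymphocyte markers, of interest because Prdm1 and Bcl6 are best known from B cells, were nearly all Ighm and Sdc1 reads: the other 13 markers summed to 0.186 to 0.648 CPM per library, and 4 of them had no read in any library.

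**Figure D1:**
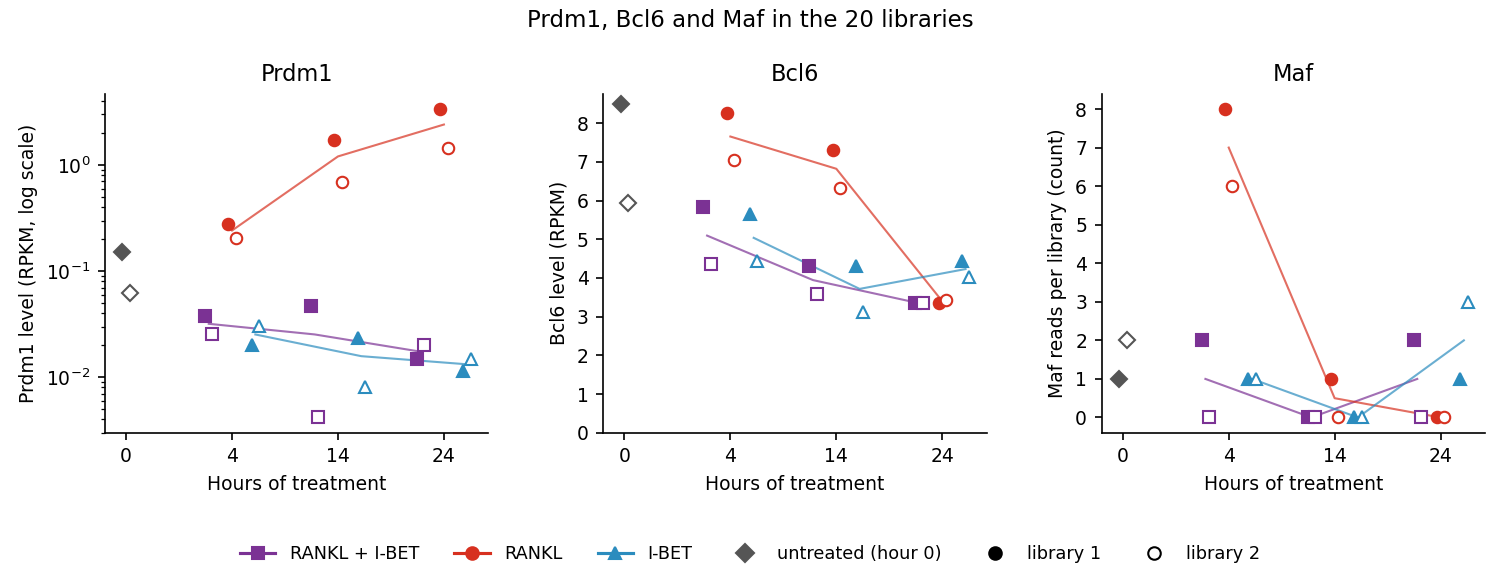
Prdm1 (RPKM, log axis), Bcl6 (RPKM) and Maf (reads per library) against hours of treatment, which are evenly spaced; filled symbols are library 1, open symbols library 2, and lines join the means of the 2 libraries. Prdm1 climbs with RANKL to 3.37 and 1.45 RPKM at 24 h and stays under 0.05 RPKM in all 12 libraries that received I-BET, while the Bcl6 means are lowest at 24 h of RANKL with or without I-BET and Maf reaches 8 reads at most.

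Prdm1 rose with RANKL at 14 h and 24 h. It had 0.151 and 0.0624 RPKM in untreated cells, 0.279 and 0.203 RPKM at RANKL 4 h, 1.72 and 0.690 RPKM at 14 h, and 3.37 and 1.45 RPKM at 24 h, and the libraries of each RANKL group lay above both untreated libraries. These levels rested on 755 and 330 reads at RANKL 24 h and on 16 and 14 reads in untreated cells. The increase was 12.2-fold at 14 h (log2 change 3.61, SE 0.59, n = 2 libraries a group, edgeR adjusted p = 0.000782) and 23.7-fold at 24 h (log2 change 4.56, SE 0.60, edgeR adjusted p = 9.92e-05). At 4 h the log2 difference was 1.24 (SE 0.61), which did not pass (edgeR adjusted p = 0.380). Over all genes tested, 3.91% were called in either direction at RANKL 4 h, 18.4% at 14 h and 18.9% at 24 h, and 41.6%, 52.8% and 53.6% had groups that did not overlap at those hours.

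In the blocked fit Prdm1 also passed at RANKL 4 h (log2 change 1.19, SE 0.36, edgeR adjusted p = 0.0304, with 14.5% of genes called). That call was lost when the untreated library 2 was left out of the blocked fit (1.10, edgeR adjusted p = 0.207). Without the block, the calls at 14 h and 24 h held with either untreated library left out, at log2 changes of 3.06 and 4.00 without library 2 and 4.16 and 5.11 without library 1. They also held without the RANKL library 1 of the hour, at 2.84 and 3.86. Library 1 stood above library 2 by 1.23 log2 CPM at RANKL 14 h and by 1.02 in untreated cells. In bulk RNA, more cells with the transcript and more transcript per cell cannot be told apart.

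Within the RANKL course, Prdm1 was 5.17-fold higher at 14 h than at 4 h (log2 change 2.37, SE 0.51, edgeR adjusted p = 0.00574, with 17.7% of genes called). This call was lost without the RANKL 4 h library 2 (edgeR adjusted p = 0.0557) or without the RANKL 14 h library 1 (0.0715). From 14 h to 24 h the groups overlapped and the log2 difference of 0.96 (SE 0.47) did not pass (edgeR adjusted p = 0.378, with 2.9% of genes called). The blocked fit called it (0.96, SE 0.22, edgeR adjusted p = 0.00489, with 16.9% of genes called).

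With I-BET added to RANKL, Prdm1 fell at every hour measured. It had 0.0381 and 0.0256 RPKM with RANKL plus I-BET at 4 h, against 0.279 and 0.203 RPKM with RANKL alone. At 14 h it had 0.0464 and 0.00417 RPKM with RANKL plus I-BET, against 1.72 and 0.690 RPKM with RANKL. At 24 h it had 0.0149 and 0.0199 RPKM with RANKL plus I-BET, against 3.37 and 1.45 RPKM with RANKL, and at no hour did the groups overlap. The level with RANKL plus I-BET was 7.50-fold lower at 4 h (log2 change -2.91, SE 0.66, edgeR adjusted p = 0.0109), 56.6-fold lower at 14 h (-5.82, SE 0.71, edgeR adjusted p = 5.55e-05) and 136-fold lower at 24 h (-7.08, SE 0.70, edgeR adjusted p = 5.72e-06). In these comparisons 11.4%, 22.1% and 26.8% of tested genes were called at 4, 14 and 24 h, and 44.3%, 55.7% and 60.4% had groups that did not overlap.

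Only 17, 8 and 10 Prdm1 reads were counted over both RANKL plus I-BET libraries at 4, 14 and 24 h, so the size of these falls is set by few reads. The ratio of reads per total with RANKL plus I-BET to RANKL was 0.132 at 4 h (95% exact binomial interval 0.0749 to 0.219) and 0.0171 at 14 h (0.00737 to 0.0340), intervals that cover counting error only. The call at 4 h was lost without the RANKL library 1 (edgeR adjusted p = 0.0614), without the RANKL plus I-BET library 1 (0.0656) or without its library 2 (0.0884), and it was kept in the blocked fit. At 14 h the RANKL plus I-BET library 2 held 1 Prdm1 read, and the log2 change was -4.75 without this library and -8.02 without the RANKL plus I-BET library 1. At 24 h it was -6.37 without the RANKL library 1 and lay between -7.54 and -6.88 with each of the other 3 libraries left out, and the calls at 14 h and 24 h held in all of these fits.

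I-BET alone also lay below untreated cells for Prdm1. The level was 0.0203 and 0.0302 RPKM with I-BET at 4 h, 0.0234 and 0.00812 RPKM at 14 h and 0.0115 and 0.0149 RPKM at 24 h, against 0.151 and 0.0624 RPKM in untreated cells, and the groups did not overlap. Prdm1 fell at 24 h (log2 change -2.93, SE 0.85, edgeR adjusted p = 0.0287, with 17.7% of genes called). The differences at 4 h (-2.08, SE 0.80, edgeR adjusted p = 0.124) and 14 h (-2.60, SE 0.82, edgeR adjusted p = 0.0526) did not pass, and 10.5% and 13.7% of genes were called there. Groups did not overlap in 51.4%, 49.4% and 54.7% of tested genes at 4, 14 and 24 h. In the blocked fit both passed (edgeR adjusted p = 0.00492 at 4 h and 0.000712 at 14 h, with 29% and 29.8% of genes called). The call at 24 h was lost without the untreated library 1 (edgeR adjusted p = 0.175), without the I-BET library 1 (0.149) or without its library 2 (0.101).

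RANKL plus I-BET and I-BET alone overlapped for Prdm1 at every hour. The log2 difference was 0.42 at 4 h (SE 0.88), 0.38 at 14 h (SE 1.06) and 0.41 at 24 h (SE 1.04), each with an edgeR adjusted p of 1. Of all tested genes, 0.517% at 4 h, 0.904% at 14 h and 0.262% at 24 h were called between these groups. No group held more than 17 Prdm1 reads over its 2 libraries, and each standard error was larger than the difference it belongs to.

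With I-BET present the RANKL difference is taken at matched hours, and without I-BET it is taken against untreated cells of hour 0. Time in culture and RANKL cannot be told apart in the latter. The interaction term compares the RANKL difference with I-BET present to that without I-BET. For Prdm1 it was -0.82 at 4 h (SE 1.10, edgeR adjusted p = 1), -3.22 at 14 h (SE 1.24, edgeR adjusted p = 0.265) and -4.15 at 24 h (SE 1.31, edgeR adjusted p = 0.0971). It did not pass, and 2.78% of genes were called at 14 h and 5.25% at 24 h. At 14 h it was -5.42 without the RANKL plus I-BET library 1 and -2.16 without its library 2, and no library left out made it pass. At 24 h it ran from -4.69 to -3.43 with 1 library left out, and it passed without the RANKL library 2 (-4.61, edgeR adjusted p = 0.0475). It passed in the blocked fit at 14 h (-3.01, SE 0.86, edgeR adjusted p = 0.0250, with 11.7% of genes called) and at 24 h (-3.96, SE 0.93, edgeR adjusted p = 0.00470, with 18.3% of genes called).

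**Figure D2:**
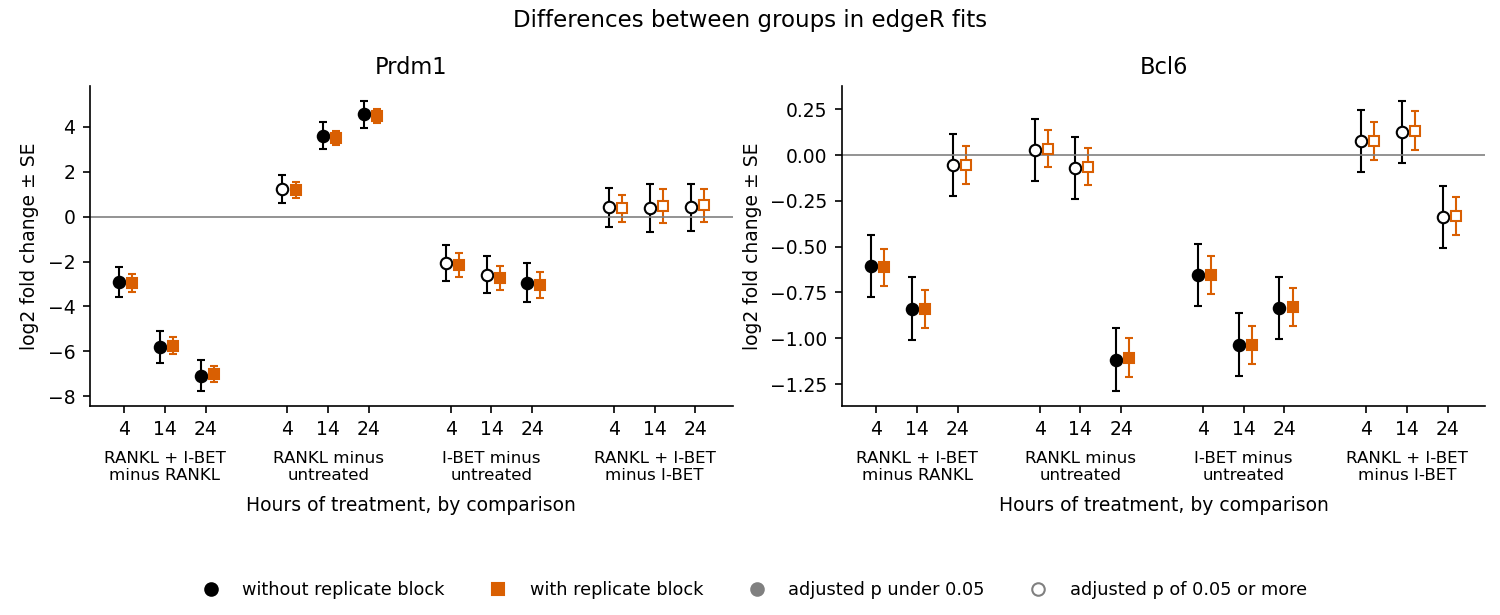
log2 fold changes with standard errors for Prdm1 and Bcl6 in 4 comparisons at 4, 14 and 24 h, each from the fit without (circles) and with (squares) the replicate block; filled symbols passed at an adjusted p under 0.05. Prdm1 runs to -7.08 with RANKL plus I-BET against RANKL at 24 h and to 4.56 with RANKL against untreated cells, while Bcl6 stays between -1.12 and 0.13.

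Bcl6 was detected in all 20 libraries and covered a narrower range than Prdm1, with 3.13 to 8.49 RPKM. It had 8.49 and 5.94 RPKM in untreated cells, 8.25 and 7.05 RPKM at RANKL 4 h, 7.30 and 6.34 RPKM at 14 h, and 3.36 and 3.44 RPKM at 24 h. The RANKL groups at 4 h and 14 h overlapped untreated cells, and both RANKL 24 h libraries lay below them. At RANKL 24 h groups did not overlap in 53.6% of all tested genes, and 18.9% were called. Bcl6 fell at RANKL 24 h to a level 2.17-fold lower than in untreated cells (log2 change -1.12, SE 0.17, edgeR adjusted p = 0.000362). The log2 difference was 0.03 at 4 h (SE 0.17, edgeR adjusted p = 0.994) and -0.07 at 14 h (SE 0.17, edgeR adjusted p = 0.851). Both small differences changed sign with 1 library left out: they were 0.20 at 4 h and 0.11 at 14 h without the untreated library 1, and -0.14 and -0.24 without library 2. The difference at 4 h was also -0.06 without the RANKL library 1. Between RANKL 14 h and 24 h Bcl6 also fell (-1.05, SE 0.17, edgeR adjusted p = 0.00416, with 2.9% of genes called), and no library left out ended that call.

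With I-BET alone Bcl6 fell at every hour. It had 5.64 and 4.43 RPKM at 4 h, 4.30 and 3.13 RPKM at 14 h and 4.44 and 4.02 RPKM at 24 h, against 8.49 and 5.94 RPKM in untreated cells. The libraries with I-BET lay below both untreated libraries at each hour. Groups did not overlap in 51.4%, 49.4% and 54.7% of all tested genes at 4, 14 and 24 h. Calls covered 10.5%, 13.7% and 17.7% of them. The Bcl6 log2 change was -0.66 at 4 h (SE 0.17, edgeR adjusted p = 0.0253), -1.04 at 14 h (SE 0.17, edgeR adjusted p = 0.00102) and -0.84 at 24 h (SE 0.17, edgeR adjusted p = 0.00338). The call at 4 h was lost without the untreated library 1 (edgeR adjusted p = 0.206) or without the I-BET library 2 (0.234), while those at 14 h and 24 h held.

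Bcl6 was lower with RANKL plus I-BET than with RANKL alone at 4 h and 14 h, and at 24 h the levels lay close together. It had 5.83 and 4.36 RPKM with RANKL plus I-BET at 4 h, against 8.25 and 7.05 RPKM with RANKL. At 14 h it had 4.30 and 3.59 RPKM with RANKL plus I-BET, against 7.30 and 6.34 RPKM with RANKL. At 24 h it had 3.35 RPKM in both libraries with RANKL plus I-BET, against 3.36 and 3.44 RPKM with RANKL, groups that lay next to each other without overlap. Of all tested genes 11.4%, 22.1% and 26.8% were called at 4, 14 and 24 h. Groups did not overlap in 44.3%, 55.7% and 60.4% of them. The Bcl6 log2 change was -0.61 at 4 h (SE 0.17, edgeR adjusted p = 0.0322) and -0.84 at 14 h (SE 0.17, edgeR adjusted p = 0.00268), and the difference at 24 h was -0.05 (SE 0.17, edgeR adjusted p = 0.856). The call at 4 h was lost without the RANKL library 1 (edgeR adjusted p = 0.190), the RANKL library 2 (0.0863) or the RANKL plus I-BET library 2 (0.266).

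RANKL plus I-BET and I-BET alone differed by 0.08 log2 at 4 h, 0.13 at 14 h and -0.34 at 24 h for Bcl6 (SE 0.17 each), and no difference passed (edgeR adjusted p = 1, 1 and 0.943). The interaction for Bcl6 was 0.05 at 4 h, 0.20 at 14 h and 0.78 at 24 h, where it did not pass (SE 0.24, edgeR adjusted p = 0.0879), and the blocked fit called it (0.77, SE 0.15, edgeR adjusted p = 0.000756). Ordered by mean RPKM, the 10 groups ran from RANKL 4 h, untreated and RANKL 14 h through the groups with I-BET at 4 h to RANKL 24 h and RANKL plus I-BET 24 h. Neighbours in that order overlapped except between RANKL 14 h and RANKL plus I-BET 4 h and between RANKL 24 h and RANKL plus I-BET 24 h. For Prdm1 the order was RANKL 24 h, 14 h and 4 h, untreated, then the 6 groups with I-BET. There neighbours overlapped between RANKL 24 h and 14 h and among the groups with I-BET, other than I-BET 4 h and RANKL plus I-BET 24 h.

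Maf was close to undetected. Its 20 libraries held 28 reads in all, and 9 libraries held none, so it did not pass the filter on low counts and was not tested. It had 8 and 6 reads at RANKL 4 h, against 1 and 2 reads in untreated cells, without overlap. The ratio of reads per total was 2.73, with a 95% exact binomial interval of 0.761 to 14.8, which includes no difference. It had 2 and 0 reads with RANKL plus I-BET at 4 h, against 8 and 6 reads with RANKL, a ratio of 0.154 (0.0170 to 0.673), an interval that covers counting error only. Over both libraries there were 4 reads at I-BET 24 h, 2 at I-BET 4 h, 2 at RANKL plus I-BET 24 h, 1 at RANKL 14 h, and none at I-BET 14 h, RANKL 24 h or RANKL plus I-BET 14 h. Its level reached at most 0.0172 RPKM, in 1 of the RANKL 4 h libraries.

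**Figure D3:**
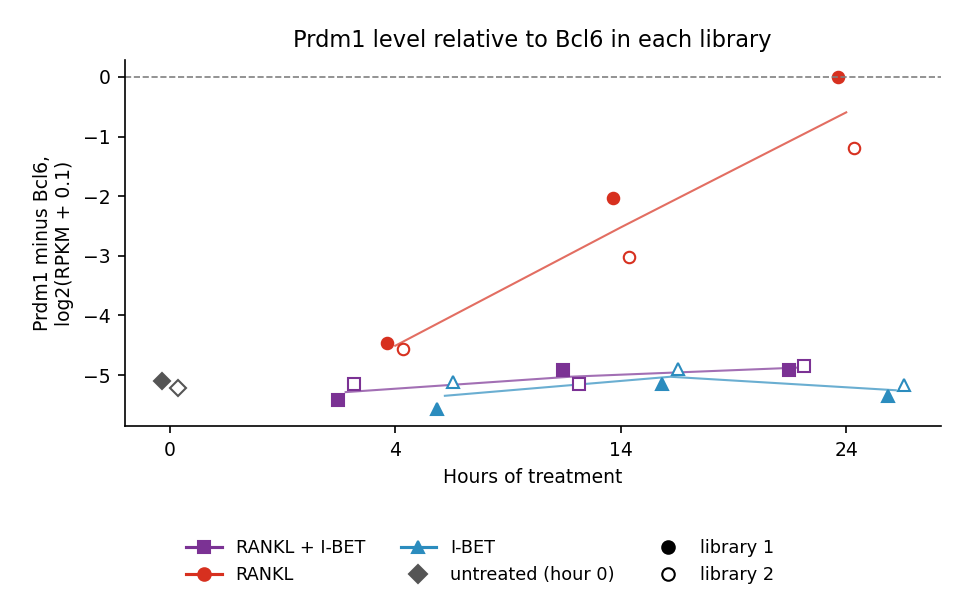
Difference between the Prdm1 and Bcl6 levels in each library, as log2(RPKM + 0.1), against evenly spaced hours of treatment; filled symbols are library 1, open symbols library 2, lines join means, and the dashed line marks equal levels. Libraries with RANKL alone climb to 0.00 and -1.19 at 24 h, while the 12 libraries with I-BET stay between -5.58 and -4.85.

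The Prdm1 level moved towards the Bcl6 level with RANKL alone, a description for which no test was made. On the scale of log2(RPKM + 0.1), Prdm1 minus Bcl6 averaged -5.16 in untreated cells, -4.51 at RANKL 4 h, -2.52 at 14 h and -0.59 at 24 h. At RANKL 24 h library 1 had the 2 transcripts at the same level per length (0.00) and library 2 had Prdm1 below Bcl6 (-1.19). With RANKL plus I-BET the difference was -5.29 at 4 h, -5.03 at 14 h and -4.88 at 24 h, and with I-BET alone it was -5.35, -5.03 and -5.26 at those hours. The pseudocount sets a floor for Prdm1 in the libraries with I-BET, and with log2(RPKM + 1) the difference at RANKL 24 h was -0.43 and that at RANKL plus I-BET 24 h was -2.10.

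Across the 10 group means of log2 CPM, Prdm1 and Bcl6 had a Pearson r of 0.354 and a Spearman rho of 0.418. Prdm1 ran opposite to Irf8, an interferon regulatory factor that blocks osteoclast formation (r = -0.931, rho = -0.818), and alongside Nfatc1, the main transcription factor of osteoclast formation (r = 0.904, rho = 0.915). Bcl6 had an r of 0.660 with Nfatc1 and -0.0651 with Irf8. These values are descriptions over 10 groups, in which the genes share libraries and depth, and the 6 groups with I-BET hold few Prdm1 reads.

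Among 9445 genes with a mean of at least 5 CPM, those whose group means were most like Prdm1 were Fosl2, a Fos-related AP-1 subunit (r = 0.989), Mphosph6, an RNA exosome cofactor (0.987), Col4a3bp, a ceramide transfer protein (0.987), and Polk, a DNA polymerase for damaged templates (0.986). Fosl2 was far more abundant, with 64.2 and 60.6 RPKM at RANKL 24 h, against 14.9 and 7.62 RPKM in untreated cells, and it had 3.76 and 2.91 RPKM with RANKL plus I-BET at 24 h. Over the 20 single libraries Fosl2 (r = 0.974) was again the gene most like Prdm1. Among the genes most like Bcl6 were Lims1, a focal adhesion adaptor (r = 0.959), Trim14 (0.948) and Tmem106a (0.941). Over single libraries Lims1 came first for Bcl6 (r = 0.929).

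**Figure D4:**
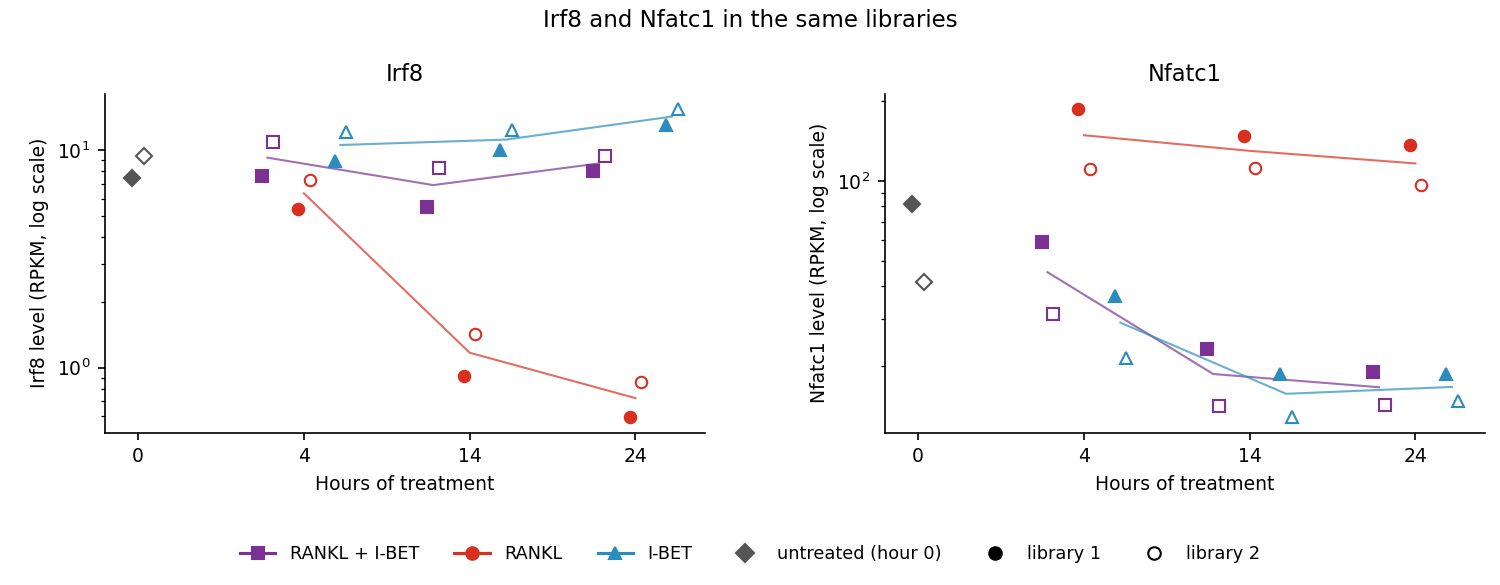
Irf8 and Nfatc1 levels (RPKM, log axes) in every library against evenly spaced hours of treatment; filled symbols are library 1, open symbols library 2, and lines join means. At 24 h both Irf8 values with RANKL alone lie below all libraries with RANKL plus I-BET, and both Nfatc1 values lie above them.

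Irf8, a gene that Blimp1 is known to repress in mouse osteoclast precursors, fell with RANKL at the hours when Prdm1 rose. Both changes are read from the same libraries, and a link between them was not tested. Irf8 had 0.590 and 0.859 RPKM at RANKL 24 h, against 7.46 and 9.44 RPKM in untreated cells (log2 change -3.60, SE 0.35, edgeR adjusted p = 6.49e-06). Irf8 had 8.02 and 9.38 RPKM with RANKL plus I-BET at 24 h, against 0.590 and 0.859 RPKM with RANKL (log2 change 3.55, SE 0.35, edgeR adjusted p = 5.71e-06). At 4 h the log2 difference between RANKL and untreated cells was -0.49 (SE 0.31, edgeR adjusted p = 0.552), and the blocked fit called it (edgeR adjusted p = 0.000881). The interaction of Irf8 passed at 14 h (2.21, edgeR adjusted p = 0.0149) and at 24 h (2.89, edgeR adjusted p = 0.00155), and its call at 14 h was lost without the untreated library 2, the RANKL library 1, the I-BET library 1 or the RANKL plus I-BET library 2, with an adjusted p of up to 0.0969.

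Nfatc1, on which Bcl6 is known to act, had 136 and 96.5 RPKM at RANKL 24 h, against 81.8 and 41.4 RPKM in untreated cells. The groups did not overlap and the log2 difference of 0.89 (SE 0.37) did not pass (edgeR adjusted p = 0.122), while the blocked fit called it (0.93, edgeR adjusted p = 1.40e-05). Nfatc1 had 19.1 and 14.2 RPKM with RANKL plus I-BET at 24 h, against 136 and 96.5 RPKM with RANKL, and it fell by 2.83 on the log2 scale (SE 0.40, edgeR adjusted p = 0.000119). Its highest group mean was at RANKL 4 h (187 and 111 RPKM), followed by RANKL 14 h (147 and 112 RPKM), and neighbouring RANKL groups overlapped. At those 2 hours the Bcl6 difference from untreated cells did not pass. With I-BET alone at 24 h Nfatc1 had 18.7 and 14.7 RPKM.

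Of 15 genes listed as known Prdm1 targets, 10 were tested. At RANKL 24 h 6 of them fell and 1 rose against untreated cells, with a median log2 change of -1.28, while the median of all tested genes was 0.05 and 10.9% of all tested genes fell and 8.04% rose. The sphingosine phosphate receptor S1pr1 (-6.53), the inhibitor of DNA binding Id3 (-4.06) and Irf8 (-3.60) were among those that fell, Bcl6 itself is on the list (-1.12), and Myc, a growth regulator that Blimp1 is known to repress in B cells, was the 1 that rose (3.39, SE 0.34, edgeR adjusted p = 7.89e-06). These 7 calls held with each library of the groups left out in turn. With the block 6 fell and 2 rose, adding Trp53 (0.25), and the fit without the untreated library 1 gave the same counts. Of all tested genes 36.8% were called with the block. At RANKL 14 h 4 fell and 2 rose (10.1% and 8.31% of all tested genes), and the blocked fit called 5 lower and 3 higher (36.3% of all tested genes called). At 4 h, when Prdm1 had not passed, 2 fell (S1pr1 among them, at -2.55) and 2 rose (Myc, 3.75, and Fos, 1.62). The Fos call at 4 h was lost without the untreated library 2. Without the block 1.83% of all tested genes fell and 2.08% rose at 4 h. The blocked fit called 4 of the list lower and 2 higher at 4 h, with 14.5% of all tested genes called.

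Against RANKL, 5 Prdm1 targets rose with RANKL plus I-BET at 24 h and 3 fell, with a median log2 change of 0.85 and a median of -0.05 over all genes, of which 13.9% rose and 12.9% fell. S1pr1 (4.11), Irf8 (3.55), Id3 (3.15) and Klf2 (1.76) were among those higher, and Myc (-8.49), Fos (-2.92) and Trp53 (-0.44) lower. S1pr1 had 0.613 and 0.839 RPKM with RANKL plus I-BET, against 0.0164 and 0.0642 RPKM with RANKL. Myc had 0.191 and 0.0886 RPKM with RANKL plus I-BET, against 53.8 and 43.8 RPKM with RANKL. These 8 calls also held with each library left out. At the earlier hours the list was more mixed: 5 rose and 4 fell at 14 h (median 0.58), and 2 rose and 3 fell at 4 h (0.53). Among all tested genes 10.8% rose and 11.2% fell at 14 h, and 4.93% rose and 6.46% fell at 4 h. The blocked fit called 5 higher and 4 lower at 4 h, with 28.1% of all tested genes called. The comparisons of RANKL with untreated cells and with RANKL plus I-BET share the RANKL libraries.

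Of 24 listed Bcl6 targets, 19 were tested, and they moved both ways with RANKL and with RANKL plus I-BET against RANKL. At RANKL 24 h, when Bcl6 had fallen, 5 rose and 7 fell, with a median of -0.16, and 8.04% of all tested genes rose and 10.9% fell. Prdm1, itself on this list (4.56), the collagen-degrading protease Ctsk (1.82) and the costimulatory molecule Cd80 (1.27) rose most, while S1pr1 (-6.53) and the chemokine receptor Cxcr4 (-3.32) fell most. The blocked fit called 8 higher and 8 lower, with 36.8% of all tested genes called. With RANKL plus I-BET against RANKL 4 rose and 6 fell at 24 h, 2 rose and 8 fell at 14 h, and 1 rose and 8 fell at 4 h. Of all tested genes 13.9% rose and 12.9% fell at 24 h. At 14 h 10.8% rose and 11.2% fell, and at 4 h 4.93% rose and 6.46% fell. In the blocked fit the counts for the list were 7 and 7 at 24 h, 5 and 9 at 14 h, and 4 and 9 at 4 h, with 46.6%, 40.2% and 28.1% of all genes called. At 4 h and 14 h Bcl6 was lower in RANKL plus I-BET cells in these same comparisons. With I-BET alone against untreated cells, where Bcl6 also fell, the calls for the list were nearly all lower. There 4 fell at 4 h, 7 fell and 1 rose at 14 h, and 9 fell at 24 h. The medians were -0.47, -0.56 and -0.66, and 10.5%, 13.7% and 17.7% of all tested genes were called in either direction. Dcstamp, a fusion protein of osteoclast precursors, had 3.18 and 3.14 RPKM with RANKL plus I-BET at 4 h, against 14.0 and 15.8 RPKM with RANKL (log2 change -2.26, SE 0.30, edgeR adjusted p = 0.000341).

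Of 14 listed targets of Maf factors, 9 were tested. At RANKL 24 h 7 passed the test, all lower than in untreated cells, with a median of -2.61, and 3 of these calls held with each library left out (C1qa, Selenop and Csf1r). C1qa, a complement component of macrophages, had 0 reads in both RANKL 24 h libraries, against 29 reads over both untreated libraries. That is at least 13.2-fold lower, taking 3 reads over the group as the floor. Selenop, a selenoprotein of tissue macrophages, had 0.00876 and 0.00859 RPKM at RANKL 24 h, against 0.0922 and 0.227 RPKM in untreated cells (log2 change -4.22, SE 0.68, edgeR adjusted p = 0.000546). Without the untreated library 2 the count was 3, and without library 1 it was 5. In the blocked fit 8 passed, all lower, with 36.8% of all tested genes called, against 10.9% called lower without the block. Against RANKL, 1 rose with RANKL plus I-BET at 24 h (Selenop, 3.08) and 2 fell (Cd5l, -2.90, and the receptor kinase Axl, -1.59), and the Cd5l call was lost without the RANKL library 2 or either RANKL plus I-BET library, with an adjusted p of up to 0.29.

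**Figure D5:**
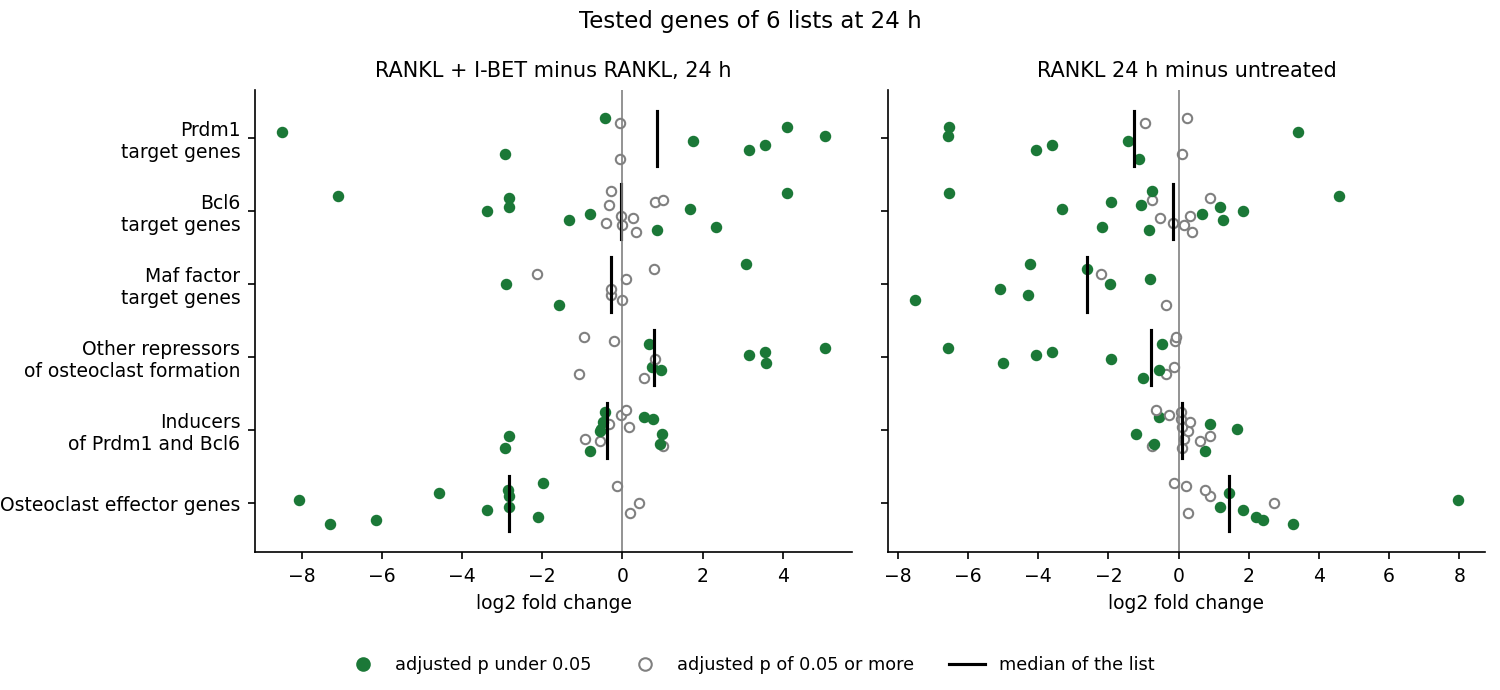
log2 fold changes of the tested genes of 6 lists for RANKL plus I-BET against RANKL and for RANKL against untreated cells, both at 24 h; each point is a gene, filled points passed at an adjusted p under 0.05, and bars are medians. Prdm1 targets and other repressors have positive medians (0.85 and 0.78) on the left and negative medians (-1.28 and -0.80) on the right, and osteoclast effector genes the reverse (-2.83 and 1.42). The lists share genes, and Irf8 and Id3 are in both the Prdm1 targets and the other repressors.

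Among 12 other repressors of osteoclast formation, 8 passed at RANKL 24 h, all lower (median -0.80), among them Id1 (-4.99), Id3 (-4.06) and Irf8 (-3.60). Id3 and Irf8 are also listed Prdm1 targets, so the lists are not separate observations. At RANKL 24 h 10.9% of all tested genes fell and 8.04% rose. The count was 5 without the untreated library 1 and 6 without library 2. With RANKL plus I-BET against RANKL at 24 h 7 passed, all higher (median 0.78), among them Foxo1 (0.97) and Foxo3 (0.74), where 13.9% of all tested genes rose and 12.9% fell. These 7 calls held with each library left out. In the blocked fit 9 were higher and 2 lower, the 2 lower ones being Zeb2 (-0.93) and Egr2 (-1.17), with 46.6% of all tested genes called. Without the block 6 of the list rose and 2 fell at 14 h, and 2 rose and 1 fell at 4 h. Among all tested genes 10.8% rose and 11.2% fell at 14 h, and 4.93% rose and 6.46% fell at 4 h. With the block 6 rose and 3 fell at 4 h, where 28.1% of all tested genes were called. Of 13 tested osteoclast effector genes, 7 rose at RANKL 24 h, led by the protease Mmp9 (7.96), the phosphatase Acp5 (3.25) and the proton pump subunit Atp6v0d2 (2.40), and 10 fell with RANKL plus I-BET against RANKL, led by Mmp9 (-8.08), Acp5 (-7.30) and Atp6v0d2 (-6.16). With I-BET alone against untreated cells 8 effector genes fell at 14 h (median -2.04), and 7 fell and 1 rose at 24 h (median -2.22). There 13.7% and 17.7% of all tested genes were called in either direction. The interaction passed for none of them at 14 h and for 2 at 24 h, both negative, with 2.78% and 5.25% of all tested genes called. With the block 9 effector genes rose at RANKL 24 h. The Atp6v0d2 rise was lost without the untreated library 2 or the RANKL library 1, with an adjusted p of up to 0.15. The macrophage markers moved with these lists: 7 of 10 fell at RANKL 24 h, and 5 rose and 2 fell with RANKL plus I-BET against RANKL. The 7 falls at RANKL 24 h and 4 of the 5 rises held with each library left out, and neither of the 2 falls with RANKL plus I-BET did. In the blocked fit 8 fell and 1 rose at RANKL 24 h, and 6 rose and 3 fell with RANKL plus I-BET against RANKL. Their part in the results for Prdm1 and Bcl6 was not tested.

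Factors known to induce Prdm1 or Bcl6 in other cells were also read. At RANKL 4 h 5 of 18 passed, all higher, and 2.08% of all tested genes rose. Fos (1.62), Nfkb2 (1.46) and Junb (1.33) had the highest changes. The Fos call was lost without the untreated library 2, and the Junb call without either untreated library or the RANKL library 2. The count was 2 without the untreated library 2 and 4 without library 1. The blocked fit called 9 higher and 1 lower, with 14.5% of all tested genes called. Fos, a subunit of AP-1, had 174 and 151 RPKM at RANKL 4 h, against 61.1 and 40.7 RPKM in untreated cells. Fos at 4 h had 59.8 and 55.5 RPKM with RANKL plus I-BET, against 174 and 151 RPKM with RANKL (log2 change -1.51, SE 0.28, edgeR adjusted p = 0.00351). Junb, another AP-1 subunit, had 153 and 222 RPKM with RANKL plus I-BET, against 134 and 167 RPKM with RANKL, groups that overlapped (log2 difference 0.30, SE 0.24, edgeR adjusted p = 0.569).

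Relatives and partners of the members were read in the same way. Of 23 tested corepressors of Bcl6 and Blimp1, 3 rose and 4 fell at RANKL 24 h, with the deacetylase Hdac4 (-1.04) and Mta3 (-0.85), a subunit of a chromatin remodelling complex, the furthest. The median was 0.05, as over all tested genes, of which 8.04% rose and 10.9% fell. The count of 7 became 3, all lower, without the untreated library 2. The blocked fit called 6 higher and 5 lower, with 36.8% of all tested genes called. Of 6 tested PRDM family genes, Prdm9 (0.58) rose and Prdm4 (-0.28) fell with RANKL plus I-BET against RANKL at 24 h. The blocked fit called 2 higher and 2 lower. In that comparison 26.8% of all tested genes were called without the block and 46.6% with it. Without the block, the calls of Prdm9 and Prdm4 were lost without the RANKL library 2 or the RANKL plus I-BET library 1, that of Prdm9 also without the RANKL library 1, and that of Prdm4 also without the RANKL plus I-BET library 2. Among 13 BTB relatives of Bcl6, Zbtb32 was lower with RANKL plus I-BET than with RANKL at each hour, by log2 changes of -1.24, -1.45 and -1.05 at 4, 14 and 24 h. Among the MAF family and its partners, Maff, a small Maf protein, rose at RANKL 24 h (1.68, SE 0.31, edgeR adjusted p = 0.00144), and Bach2 had 0 reads at RANKL 24 h, against 14 reads over both untreated libraries, at least 6.38-fold lower by the same floor. The Bach2 call was lost without the untreated library 1 or either RANKL library.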

How the data were processed

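Poly(A) RNA of 20 libraries was sequenced as paired reads, per the labels' protocols. The submitters' processing notes name STAR 2.5.3a, DESeq2 1.16.1, FastQC and the builds GRCm38 and mm10; neither the counting tool nor its use of strand is stated there. The authors deposited raw counts per gene (50686 genes) and RPKM (42748 genes). The deposited RPKM are those counts over exonic length and library size, and hold no measurement of their own. Symbols came from the deposited table for 42745 genes and from GENCODE M21 for 7915, and 26 had none.

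Counts were tested with edgeR 4.0.16 (R 4.3.3; TMM, low-count filter, robust quasi-likelihood fit over all 10 groups, 10 residual degrees of freedom) over 16042 genes in 21 comparisons. P-values were adjusted over all tested genes by the Benjamini-Hochberg method, and a gene was called at an adjusted p under 0.05. Maf failed the low-count filter. Libraries of the same number deviated together in all 45 pairs of groups (correlations 0.221 to 0.596, median 0.454), so a fit with the library number as a block was also made. The biological coefficient of variation was 0.162 without and 0.075 with the block. Alternatives were DESeq2 1.42.0, limma 3.58.1 on log2 RPKM with pseudocounts of 0.1 and 1, no filter, the compared libraries alone, and leaving out each library. Scripts were tested on simulated data, and figures were drawn with matplotlib 3.10.9. Library totals of 19051780 to 62313792 set the precision of low genes. Read ratios carry 95% exact binomial intervals, which cover counting error only.

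Genes named are the members, Irf8 and Nfatc1, the 4 genes most like Prdm1 and Bcl6 in group means, and up to 3 called genes of each list with the largest changes among those whose groups did not overlap. Other genes named to complete a count or a contrast were chosen after their values were seen. Some genes that this rule names are not reported here. The members and the lists were chosen with earlier results of these data known.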

Additional observations from a re-analysis of the deposited data

Results flagged for a closer look

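The RANKL difference with I-BET present was set against that without I-BET, which was taken against untreated cells of hour 0. Time in culture enters only the difference without I-BET. The term for this contrast passed in the blocked fit in 3 cases. For Prdm1 it was -3.01 at 14 h (SE 0.86, edgeR adjusted p = 0.0250) and -3.96 at 24 h (SE 0.93, edgeR adjusted p = 0.00470). For Bcl6 it was 0.77 at 24 h (SE 0.15, edgeR adjusted p = 0.000756). Without the block the same terms were -3.22, -4.15 and 0.78, and they did not pass (edgeR adjusted p = 0.265, 0.0971 and 0.0879).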

How the results depend on the processing

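Of 252 alternative values for the 18 main results on Prdm1 and Bcl6 (RANKL and I-BET against untreated cells and RANKL plus I-BET against RANKL), 159 under other settings and 57 with a library left out kept their direction and their side of the threshold. With the replicate block Prdm1 at RANKL 4 h against untreated cells was 1.19 and passed, as it did with no low-count filter (1.24). Prdm1 with I-BET against untreated cells also passed at 4 h with the replicate block (-2.14), with the block and the untreated library 2 left out (-2.23), with no filter (-2.08) and with DESeq2 (-2.17), and at 14 h under the same settings (-2.73, -2.80, -2.59 and -2.72). The block changed no call among the rest of these results. Outside them it also called Bcl6 at 14 h against 4 h with I-BET (-0.38, edgeR adjusted p = 0.0122) and with RANKL plus I-BET (-0.32, edgeR adjusted p = 0.0262), beside the terms given in the report. With limma on log2 RPKM, pseudocounts 1 and 0.1, calls were lost for Prdm1 with RANKL plus I-BET against RANKL at 4 h (-0.27 and -1.37), Prdm1 with I-BET at 24 h (-0.13 and -0.83), Bcl6 with RANKL plus I-BET at 4 h (-0.51 and -0.59) and Bcl6 with I-BET at 4 h (-0.43 and -0.50). The compared libraries alone lost these Bcl6 calls (-0.61 and -0.64). Bcl6 at RANKL 4 h turned to -0.053 with the block and the untreated library 2 left out, and its interaction at 4 h to -0.078 and -0.089 with limma. The cause was not tested.

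With each library left out in turn, Prdm1 ranged from -3.21 to -2.69 for RANKL plus I-BET against RANKL at 4 h and from -3.47 to -2.38 for I-BET at 24 h. Against I-BET alone at 14 h Prdm1 ranged from -1.81 to 1.45 with RANKL plus I-BET, and it ranged from -0.78 to 0.64 for I-BET 24 h against 14 h. With RANKL plus I-BET it ranged from -2.74 to 0.52 for 14 h against 4 h and from -1.37 to 1.90 for 24 h against 14 h. Bcl6 ranged from -0.14 to 0.20 at RANKL 4 h, -0.24 to 0.11 at RANKL 14 h, -0.80 to -0.44 and -0.079 to 0.0050 for RANKL plus I-BET against RANKL at 4 h and 24 h, and -0.84 to -0.48 for I-BET at 4 h. Against I-BET alone it ranged from -0.12 to 0.26 at 4 h and from -0.060 to 0.34 at 14 h, and its interaction at 4 h from -0.14 to 0.24. With 2 libraries a group, a left-out fit assumes that the lone library varies like the other groups. Depth limits Maf in every group and Prdm1 in the groups with I-BET.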
